A study of Mus musculus with 6 samples.

Results

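The genes described here are the ligands and receptors of the tumour necrosis factor (TNF) superfamily, taken from a table of 55487 mouse genes by symbol alone. Every symbol made of Tnfsf or Tnfrsf and a number was included, with Tnf, Lta, Ltb, Ltbr, Fas, Fasl, Cd27, Cd70, Cd40, Cd40lg, Ngfr, Eda2r and Edar. This gave 45 genes, of which 17 encode ligands, 27 encode receptors and 1, Tnfsf13os, is an antisense transcript. RNA came from live cells of the small intestinal epithelial area of wild-type C57BL/6J mice, with no treatment or age in the labels. All cells were sorted as CD3ε+ and CD45+, that is, as T cells among leukocytes, and were divided by staining for B220, the CD45 isoform that marks most B cells. The 3 B220-CD3ε+CD45+ libraries are labelled T cells and the 3 B220+CD3ε+CD45+ libraries X cells, and the design has the comparison of these groups only.

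TNF superfamily ligands are mostly membrane-bound trimers that can be shed, and each binds one or a few receptors on a neighbouring cell. Receptors with a cytoplasmic death domain can recruit FADD and caspase-8, and the others bind TRAF adaptors and switch on NF-κB. In the gut epithelium, lymphocytes use FasL and TNF against damaged or infected cells, and receptors such as 4-1BB, OX40, GITR and CD27 costimulate T cells.

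Libraries held 11320363 to 39591312 counts, the deepest being B220+ replicate 2. No label says whether replicates came from separate mice, so a p-value here refers to the spread among these libraries, which may be technical. Cd3e, the receptor chain used for sorting, stood at 1214 ± 13.7 CPM (counts-per-million of the scaled library size, mean ± SD, n = 3) in B220- and 1361 ± 56.4 CPM in B220+ cells, and of 6 T cell genes 1 was called (Cd247, lower). Of 10 B cell markers 8 were too low to test and 0 were called, with summed levels of 25.4 to 33.5 CPM in B220- and 31.9 to 35.9 CPM in B220+ libraries. Nearly all of this was Cd79b, while Ms4a1 had 2 and 1 counts over the groups. Markers of CD4 helper and regulatory T cells summed to 723 to 1206 CPM in B220- and 183 to 217 CPM in B220+ libraries. Of these 10 markers 9 were called lower. Ctla4 made up the largest part of both sums, with means of 272 ± 77.1 and 114 ± 12.6 CPM. Cd5 was second in B220- cells (232 ± 64.3, against 9.97 ± 5.54 CPM). Zbtb7b, the marker not called, had overlapping groups (43.4 ± 5.08 and 47.2 ± 4.14 CPM, edgeR adjusted p = 0.555). Markers of macrophages and dendritic cells summed to 255 to 329 and 386 to 537 CPM, and 1 of 6 tested was called (Lyz2, lower). Most of this was Itgax at 278 ± 42.5 and 431 ± 78.5 CPM, whose groups did not overlap (edgeR adjusted p = 0.0554, called higher with the replicate block at 1.99e-06 and by DESeq2 at 6.35e-06). Epithelial markers summed to 290.3 to 357 and 321 to 365 CPM, mostly Cdh1 at 265 ± 25.0 and 258 ± 16.0 CPM, with 0 of 9 tested called. Epcam was at 35.9 ± 14.7 and 75.4 ± 6.20 CPM without overlap (edgeR adjusted p = 0.170, DESeq2 0.0359), and Muc2, at 1.98 ± 0.745 and 0.822 ± 0.760 CPM, was called lower with the replicate block (edgeR adjusted p = 0.0169). No marker in these 5 lists was at 0 in every library. The part of these marker differences in the results below was not tested.

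Of the 45 genes, 31 passed the filter on low counts and were tested with edgeR's quasi-likelihood test, with Benjamini-Hochberg adjustment over all 14722 genes tested. At an adjusted p under 0.05, 5 were called higher in B220+ cells (5.58% of all tested genes were) and 9 lower (5.56% of all were), 14 in all against a background of 11.1%. The median log2 fold change of the 31 was −0.018, beside −0.0074 over all tested genes. Among ligands 1 of 13 tested was called higher and 6 lower. Among receptors 4 of 18 were called higher and 3 lower. The 3 libraries of one group all lay above or below the other group's for 20 of the 31, against 28.1% of all tested genes. With the replicate number of the titles as a block, 9 were called higher and 10 lower, against a background of 17.5%. Each library holds many cells, so fewer cells of a type and less RNA per cell cannot be told apart in any value below.

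**Figure D1:**
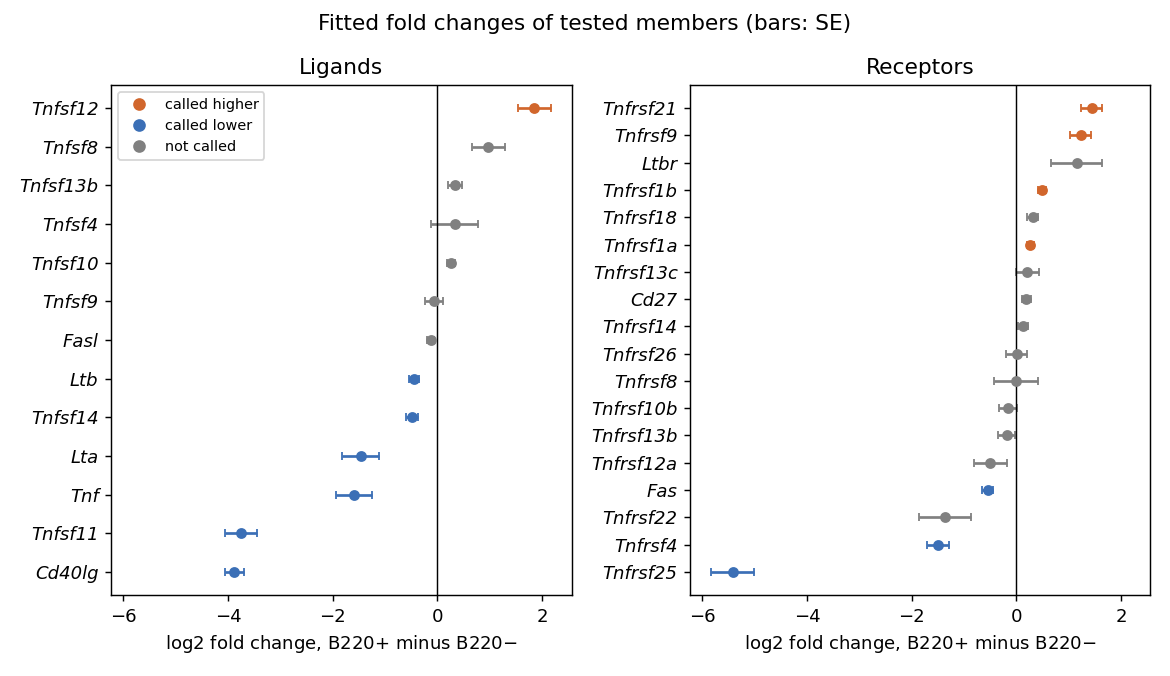
Fitted log2 fold change (B220+ minus B220-, points, with SE bars) of the 13 ligands and 18 receptors tested, ordered by size. Cd40lg and Tnfsf11 lie lowest among ligands and Tnfrsf25 lowest among receptors, and Tnfsf12 and Tnfrsf21 lie highest.

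Members differed widely in level. Per kilobase of exon (RPKM, the CPM divided by exon length), Tnfrsf1b, the TNF receptor of lymphocytes that lacks a death domain, was highest in both groups, at 119.6 RPKM in B220- and 168 RPKM in B220+ cells. Fasl came second in both groups, at 94.4 and 86.0 RPKM. In B220- cells Ltb (78.5 RPKM) and Tnfsf10 (61.0 RPKM) followed, and in B220+ cells the order was Tnfsf10 (72.6 RPKM) and then Ltb (57.3 RPKM). The library ranges of these neighbours did not overlap, except that Ltb in B220+ cells overlapped the next gene, Tnfrsf1a, at 49.8 RPKM. Cd40lg stood at 25.4 RPKM in B220- cells, where its library range overlapped those of Tnfrsf18, Tnfrsf14 and Tnf, so that their order was not resolved. In B220+ cells it fell to 1.63 RPKM, and its library range overlapped those of its neighbours Tnfrsf12a and Tnfrsf10b.

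Among the ligands tested, Cd40lg and Tnfsf11 had the lowest fold changes. Cd40lg (ENSMUSG00000031132, mm10 chromosome X, 57212143 to 57224042) encodes CD40 ligand, which helper T cells show to B cells and dendritic cells. It stood at 35.8, 25.9 and 33.7 CPM in B220- replicates 1 to 3 and at 1.53, 2.47 and 2.12 CPM in B220+ replicates 1 to 3. All B220+ libraries were far below all B220- libraries, and the log2 fold change of Cd40lg was −3.88 (SE 0.18, edgeR adjusted p = 1.59e-07). Tnfsf11 (ENSMUSG00000022015, chromosome 14, 78277445 to 78308043) encodes RANKL, which acts on osteoclast precursors, dendritic cells and the epithelium over lymphoid follicles. Its levels were 8.62, 5.95 and 8.48 CPM in B220- and 0.255, 0.630 and 0.707 CPM in B220+ replicates 1 to 3, again with no overlap (log2 fold change −3.75, SE 0.31, edgeR adjusted p = 1.03e-05). Over the groups this was 362 and 38 counts. Cd4, the helper coreceptor, stood beside them at 177 ± 46.8 and 7.63 ± 0.839 CPM, and its part in these differences was not tested. Both calls were kept in every fit that left out 1 library.

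TNF and the lymphotoxins, whose genes are neighbours, were all called lower in B220+ cells. Ltb, Tnf and Lta lie within 10913 bases of chromosome 17. Tnf (ENSMUSG00000024401, 35199381 to 35202007, minus strand) stood at 31.1, 43.2 and 36.0 CPM in B220- replicates 1 to 3 and at 6.87, 17.1 and 11 CPM in B220+ replicates 1 to 3. In both groups replicate 2 was highest and replicate 1 lowest, and the groups did not overlap. The log2 fold change of Tnf was −1.59 (SE 0.34) with an edgeR adjusted p of 0.0474, against 2.39e-06 with the replicate block. Without the block leaving out a single library ended the call in 4 of 6 cases (0.119 to 0.166, without B220- replicates 1, 2 and 3 and B220+ replicate 3) and with no filter on low counts (0.123). Lta (ENSMUSG00000024402, 35203165 to 35205351, minus strand) encodes lymphotoxin α, a secreted ligand of the TNF receptors. It stood at 3.18, 2.15 and 5.07 CPM in B220- and 0.848, 1.23 and 1.56 CPM in B220+ replicates 1 to 3, from 155 and 81 counts (log2 fold change −1.47, SE 0.36, edgeR adjusted p = 0.0183). The groups did not overlap, but the adjusted p was 0.0990 without B220- replicate 3, 0.0652 without B220+ replicate 1 and 0.0833 without B220+ replicate 2. Ltb (ENSMUSG00000024399, 35194439 to 35196320, plus strand) encodes lymphotoxin β, which anchors lymphotoxin to the membrane. Its levels were 131, 111 and 115 CPM in B220- and 75.6, 88.5 and 96.7 CPM in B220+ replicates 1 to 3. All B220+ libraries lay below all B220- libraries, by less than for its neighbours (log2 fold change −0.45, SE 0.095, edgeR adjusted p = 0.00861).

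**Figure D2:**
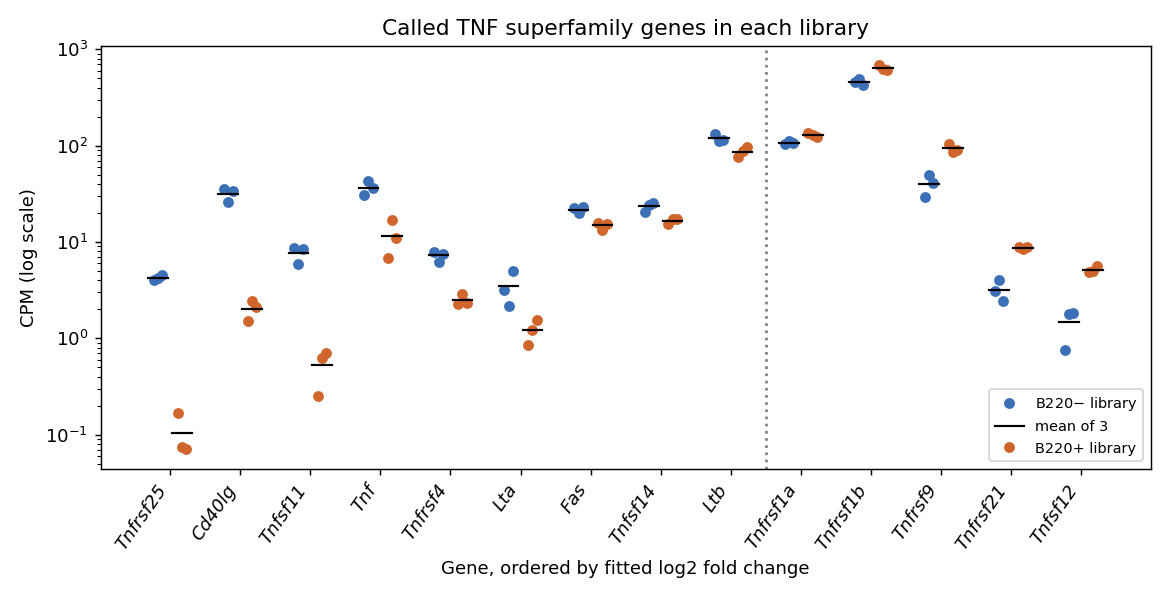
CPM (log axis) in each of the 3 B220- and 3 B220+ libraries (points, with the mean as a bar) for the 14 called members, ordered by fitted fold change, with the 9 lower ones left of the dotted line. No gene shown has overlapping groups, and the gap is widest for Tnfrsf25.

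Promoters are shown for these 3 neighbours because they were called in the same direction. Those of Tnfsf11 and the receptor Tnfrsf25 are shown because their fold changes were among the lowest. Tnfrsf1b and Tnfrsf21 are examples of receptors called higher, and the promoters of Tnfrsf9 and Tnfrsf1a, also called higher, are not shown. Sequences are from RefSeq on GRCm38.p6 and end just before the annotated start. They are written 5′ to 3′ on the gene's strand, with capitals at GGAAA on either strand, the core of NFAT sites. The Ltb window holds 182 bases, because the GENCODE start lies further upstream, and the others 250 bases.
Tnf: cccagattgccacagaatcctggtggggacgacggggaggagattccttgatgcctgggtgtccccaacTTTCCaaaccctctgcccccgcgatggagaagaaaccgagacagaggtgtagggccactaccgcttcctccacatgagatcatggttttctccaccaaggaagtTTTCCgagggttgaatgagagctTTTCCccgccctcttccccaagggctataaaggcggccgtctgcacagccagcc
Lta: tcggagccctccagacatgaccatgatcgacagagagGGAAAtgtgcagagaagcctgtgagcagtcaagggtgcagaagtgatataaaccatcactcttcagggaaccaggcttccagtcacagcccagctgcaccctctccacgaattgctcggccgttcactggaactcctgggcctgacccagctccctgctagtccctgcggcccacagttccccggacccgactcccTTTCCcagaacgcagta
Ltb: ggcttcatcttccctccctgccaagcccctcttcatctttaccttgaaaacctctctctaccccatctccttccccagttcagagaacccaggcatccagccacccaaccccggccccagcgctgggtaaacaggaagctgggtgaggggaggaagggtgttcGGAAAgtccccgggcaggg
Tnfsf11: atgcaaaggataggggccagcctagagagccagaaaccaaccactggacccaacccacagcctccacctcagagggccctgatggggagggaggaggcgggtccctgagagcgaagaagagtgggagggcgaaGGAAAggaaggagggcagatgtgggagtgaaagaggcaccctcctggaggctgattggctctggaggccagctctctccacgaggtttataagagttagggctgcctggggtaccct
Tnfrsf25: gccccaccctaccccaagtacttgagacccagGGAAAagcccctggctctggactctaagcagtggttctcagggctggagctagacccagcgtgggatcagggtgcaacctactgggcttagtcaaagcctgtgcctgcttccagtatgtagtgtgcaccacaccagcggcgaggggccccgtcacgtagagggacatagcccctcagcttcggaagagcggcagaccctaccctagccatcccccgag
Tnfrsf1b: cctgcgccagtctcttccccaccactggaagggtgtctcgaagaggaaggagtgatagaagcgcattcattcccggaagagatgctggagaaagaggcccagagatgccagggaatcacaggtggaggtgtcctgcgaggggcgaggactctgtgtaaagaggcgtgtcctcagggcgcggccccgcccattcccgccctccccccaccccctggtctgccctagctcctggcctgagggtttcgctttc
Tnfrsf21: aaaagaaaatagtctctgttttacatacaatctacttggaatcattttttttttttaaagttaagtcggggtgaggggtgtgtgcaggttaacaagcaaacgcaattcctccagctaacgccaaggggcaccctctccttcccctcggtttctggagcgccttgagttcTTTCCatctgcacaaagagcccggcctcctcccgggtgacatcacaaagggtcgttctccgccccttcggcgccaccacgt
These windows are chr17:35202008-35202257 (Tnf, minus strand), chr17:35205352-35205601 (Lta, minus), chr17:35194257-35194438 (Ltb, plus), chr14:78308044-78308293 (Tnfsf11, minus), chr4:152115684-152115933 (Tnfrsf25, plus), chr4:145246871-145247120 (Tnfrsf1b, minus) and chr17:43016305-43016554 (Tnfrsf21, plus). The Tnf window held GGAAA 3 times, the Lta window 2 times and the Tnfrsf1b window 0 times. The Ltb, Tnfsf11, Tnfrsf25 and Tnfrsf21 windows held it 1 time each. Among called members with a RefSeq promoter that is not shown, the lower Tnfsf14 held it 3 times and the lower Fas and Tnfrsf4 1 time each. The higher Tnfrsf9 held it 2 times and the higher Tnfrsf1a 0 times. The windows of Tnfrsf9 and Tnfrsf1a begin downstream of the GENCODE start, within the annotated gene, and were not cut as for Ltb. TATAAA, the TATA box, was searched on both strands. It began at position −29 in Tnf and −167 in Lta on the gene's strand, and lay on the opposite strand at −32 in Tnfsf11, with bases counted back from the start. Of the 45 members 34 had a RefSeq promoter, and of these 26 (76.5%) held GGAAA, 23 (67.6%) held GGG and CC with any 5 bases between, a loose κB pattern, and 7 (20.6%) held TATAAA. Over 27025 RefSeq promoters of the same 250 bases the shares were 55.6%, 45.4% and 13.0%. Where a gene had several RefSeq promoters, the choice differed between these sets. For members it was the promoter nearest the GENCODE start, and for all genes the first listed. The patterns can overlap each other, and a match is a description of letters only.

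Among the other ligands 1 was called lower and 1 higher. Tnfsf14 (ENSMUSG00000005824, chromosome 17, 57189492 to 57194177) encodes LIGHT, a ligand of HVEM and of the lymphotoxin β receptor. It stood at 20.6, 24.4 and 25.7 CPM in B220- and 15.4, 17.5 and 17.3 CPM in B220+ replicates 1 to 3, without overlap (log2 fold change −0.49, SE 0.11, edgeR adjusted p = 0.0152). The adjusted p was 0.0795 without B220- replicate 3 and 0.0579 without B220+ replicate 1. Tnfsf12 (ENSMUSG00000097328, chromosome 11, 69686250 to 69695849) encodes TWEAK, which acts on epithelium and stroma through Fn14, and it rose from a low level. Its values were 0.754, 1.81 and 1.84 CPM in B220- and 4.84, 5.06 and 5.66 CPM in B220+ replicates 1 to 3, from 67 and 338 counts. Every B220+ library was above every B220- library (log2 fold change 1.85, SE 0.31, edgeR adjusted p = 0.00164), also in each fit that left out 1 library. The read-through gene Tnfsfm13 shares 48.25% of the exon bases of Tnfsf12 on the same strand, and how reads in shared exons were counted is not given in the sources used here.

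The death ligands were abundant in both groups and neither was called. Fasl, which encodes the killing ligand FasL, stood at 179.8, 184 and 185 CPM in B220- and 172, 162 and 166 CPM in B220+ replicates 1 to 3 (log2 fold change −0.13, SE 0.063, edgeR adjusted p = 0.227). Its groups did not overlap, with means of 183 ± 2.57 and 167 ± 5.10 CPM. Tnfsf10, which encodes TRAIL, stood at 325, 346 and 293 CPM in B220- and 396, 394 and 358 CPM in B220+ replicates 1 to 3. All B220+ libraries were the higher ones, yet the edgeR adjusted p was 0.0549 (log2 fold change 0.25, SE 0.077), against 0.00399 with the replicate block, 0.0238 with DESeq2 and 0.0141 with no low-count filter. It was 0.0329 without B220- replicate 2 and 0.0490 without B220+ replicate 3.

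Among costimulatory ligands of T cells and antigen-presenting cells other than Tnfsf14, given above, the call of 1 gene differed between fits. Tnfsf8, which encodes CD30 ligand, stood at 25.8, 51.1 and 42.1 CPM in B220- and 60.3, 87.6 and 84.0 CPM in B220+ replicates 1 to 3. Both replicates numbered 1 were the lowest of their group, and the B220+ to B220- ratios by number were 2.34, 1.71 and 2.00. The log2 fold change of 0.97 (SE 0.31) had an edgeR adjusted p of 0.149 without the block, 1.13e-07 with it and 0.0295 with DESeq2. Tnfsf9, the ligand of 4-1BB, stood at 8.81 ± 0.993 and 8.34 ± 1.67 CPM (edgeR adjusted p = 0.873), and an opposite-strand gene, Gm11110, at 15.3 ± 0.393 and 12.5 ± 1.39 CPM shares 14.88% of its exon bases. Tnfsf4, the ligand of OX40, was at 0.859 ± 0.397 and 1.09 ± 0.319 CPM (edgeR adjusted p = 0.746). The B cell survival ligand Tnfsf13b (BAFF) stood at 9.61 ± 0.306 and 12.2 ± 0.998 CPM, with no overlap and an edgeR adjusted p of 0.150.

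**Figure D3:**
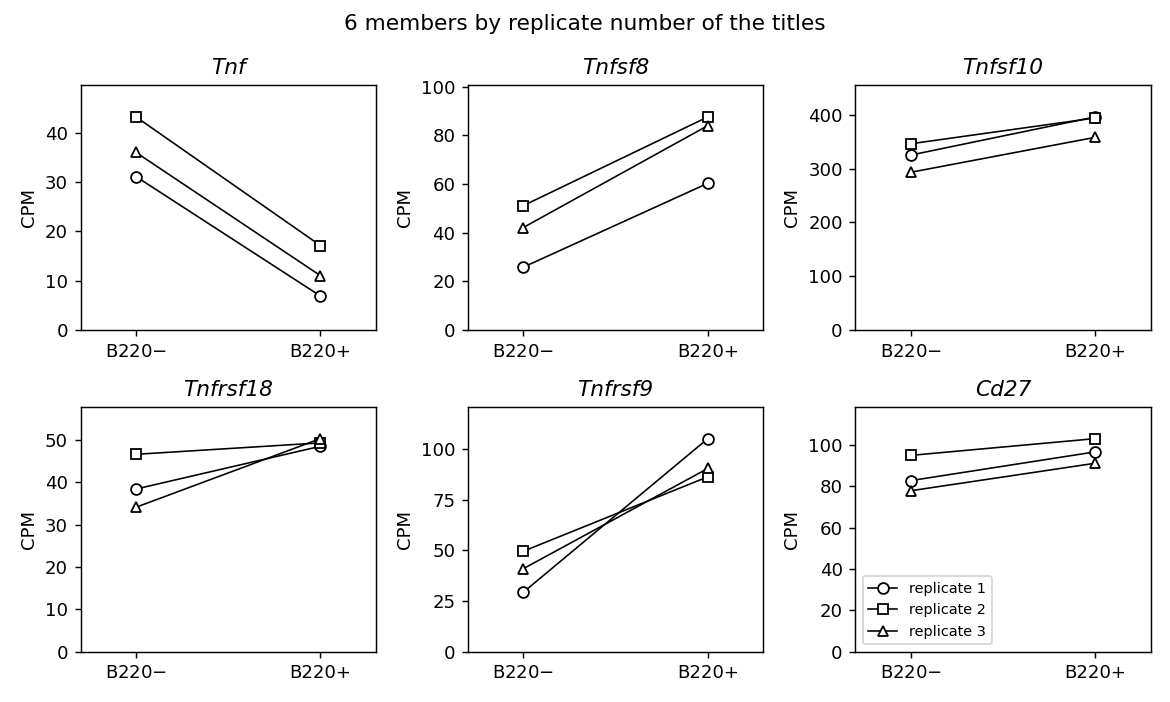
CPM of 6 members in B220- and B220+ libraries, with lines joining libraries of the same replicate number. Lines run nearly parallel for Tnf, Tnfsf8 and Cd27. They cross for Tnfrsf9, where replicate 1 was lowest in B220- (29.3) and highest in B220+ (105). Lines also cross for Tnfrsf18, where replicate 3 was lowest in B220- (34.1) and highest in B220+ (50.3), and for replicates 1 and 2 of Tnfsf10.

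Of the 7 receptors with a death domain, 5 were tested, and 2 of these were called higher and 2 lower. Tnfrsf25 (ENSMUSG00000024793, chromosome 4, 152115934 to 152120119) encodes DR3, the receptor of the cytokine TL1A, which costimulates effector and regulatory T cells. It stood at 4.04, 4.19 and 4.55 CPM in B220- replicates 1 to 3, and at 0.170, 0.0755 and 0.0707 CPM in B220+ replicates 1 to 3, where it had 2, 3 and 1 counts. The groups were far apart, with 201 counts against 6 and a depth-corrected ratio of 46.1 (95% exact counting interval 20.8 to 127, edgeR adjusted p = 4.65e-06), and the call was kept without each library in turn. This interval covers counting error only. Fas (ENSMUSG00000024778, chromosome 19, 34290666 to 34327772), the death receptor bound by FasL, stood at 22.4, 19.8 and 23.0 CPM in B220- and 15.8, 13.5 and 15.5 CPM in B220+ replicates 1 to 3. It fell without overlap (log2 fold change −0.55, SE 0.11, edgeR adjusted p = 0.00703), with an adjusted p of 0.0524 without B220+ replicate 2.

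Tnfrsf21 (ENSMUSG00000023915, chromosome 17, 43016555 to 43089189) encodes death receptor DR6, which restrains T helper responses. It stood at 3.07, 4.02 and 2.45 CPM in B220- and 8.82, 8.44 and 8.98 CPM in B220+ replicates 1 to 3. The B220+ libraries were close together and all above the B220- libraries (log2 fold change 1.44, SE 0.20, edgeR adjusted p = 4.73e-04), and the call held without each library in turn. Tnfrsf1a (ENSMUSG00000030341, chromosome 6, 125349362 to 125362484), the TNF receptor with a death domain, stood at 105, 112 and 107 CPM in B220- and 136, 128 and 124 CPM in B220+ replicates 1 to 3. It was 1.19-fold higher (log2 fold change 0.26, SE 0.067, edgeR adjusted p = 0.0268), and leaving out a single library ended the call in 4 of 6 cases (adjusted p of 0.0563 without B220- replicate 1, 0.103 without B220- replicate 3, 0.101 without B220+ replicate 1 and 0.0747 without B220+ replicate 2). Tnfrsf10b, the TRAIL receptor, overlapped between groups at 7.21 ± 0.726 and 6.45 ± 0.863 CPM (edgeR adjusted p = 0.662).

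Of 16 receptors that bind TRAF adaptors without a death domain, 11 were tested, and 2 were called higher and 1 lower. Tnfrsf1b (ENSMUSG00000028599, chromosome 4, 145213463 to 145246870) encodes the second TNF receptor, found mainly on lymphocytes. Its levels were 459, 489 and 422 CPM in B220- and 686, 633 and 607 CPM in B220+ replicates 1 to 3. Every B220+ library was above every B220- library, and Tnfrsf1b rose 1.41-fold (log2 fold change 0.49, SE 0.077, edgeR adjusted p = 0.00114), in each fit that left out 1 library as well. Tnfrsf9 (ENSMUSG00000028965, chromosome 4, 150914562 to 150946102), or 4-1BB, is induced on activated T cells. It stood at 29.3, 49.5 and 40.9 CPM in B220- and 105, 86.2 and 90.3 CPM in B220+ replicates 1 to 3, without overlap (log2 fold change 1.23, SE 0.20, edgeR adjusted p = 0.0113). The B220+ to B220- ratios by replicate number ranged from 1.74 to 3.58, and the adjusted p was 0.135 with the replicate block and 0.0525 without B220- replicate 3.

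Tnfrsf4 (ENSMUSG00000029075, chromosome 4, 156013843 to 156016612) encodes OX40, a costimulatory receptor of activated CD4 and regulatory T cells, and was the one called lower. It stood at 7.97, 6.23 and 7.61 CPM in B220- and 2.29, 2.90 and 2.33 CPM in B220+ replicates 1 to 3 (log2 fold change −1.50, SE 0.21, edgeR adjusted p = 4.15e-04). The groups did not overlap, and the call held without each library in turn. Its neighbour Tnfrsf18, which encodes GITR and lies within the same 15053 bases, stood at 38.4, 46.6 and 34.1 CPM in B220- and 48.5, 49.3 and 50.3 CPM in B220+ replicates 1 to 3. Here the B220+ libraries were the higher ones, with an edgeR adjusted p of 0.0730 (0.00956 with no filter on low counts, 0.0174 with libraries blocked by number, 0.00529 without B220- replicate 2). The opposite-strand gene Gm16008 shares 27.17% of the exon bases of Tnfrsf18 and stood at 22.9 ± 3.22 and 27.7 ± 0.775 CPM, and whether counting used strand is not given in the sources used here.

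Other TRAF-binding receptors were not called. Cd27, the receptor of CD70, stood at 85.2 ± 8.80 and 97.1 ± 6.19 CPM with overlapping groups (edgeR adjusted p = 0.210, or 0.0340 with the replicate block). Tnfrsf14, which encodes HVEM, stood at 32.3 ± 2.18 and 34.8 ± 3.90 CPM (edgeR adjusted p = 0.556). The receptors of BAFF, best known from B cells, were present at low levels. Tnfrsf13b (TACI) stood at 12.3 ± 3.16 and 10.9 ± 0.0405 CPM and Tnfrsf13c at 3.07 ± 0.194 and 3.58 ± 0.354 CPM (edgeR adjusted p = 0.601 and 0.656). Ltbr, the lymphotoxin β receptor of stromal and myeloid cells, stood at 1.18 ± 0.756 and 2.51 ± 0.753 CPM (edgeR adjusted p = 0.188, or 0.0231 with the replicate block). Tnfrsf12a, which encodes the TWEAK receptor Fn14, was at 4.79 ± 1.99 and 3.30 ± 0.903 CPM and Tnfrsf8, which encodes CD30, at 0.910 ± 0.332 and 0.962 ± 0.353 CPM (edgeR adjusted p = 0.424 and 0.987).

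Tnfrsf26, Tnfrsf22 and Tnfrsf23 are close relatives that lie together on chromosome 7, and Tnfrsf22 and Tnfrsf23 encode decoy receptors of TRAIL. Reads may be shared among such relatives, so their values are uncertain to that extent. Tnfrsf26 stood at 7.89 ± 1.77 and 7.80 ± 1.40 CPM (edgeR adjusted p = 0.989). Tnfrsf22 had 66 counts over B220- and 33 over B220+ libraries (edgeR adjusted p = 0.114, or 0.0454 with the replicate block). Tnfrsf23 had 21 and 12 counts and was not tested.

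In all 14 members were not tested. Of these, 6 had no count in any library: Cd40, Cd70, Tnfsf18, Tnfrsf11b, Ngfr and Edar. A count of 0 allows up to 0.0630 CPM over the B220- and 0.0457 CPM over the B220+ libraries (3 counts per group, counting error only). The other 8 had at most 45 counts over all 6 libraries. Besides Tnfrsf23 they were the ligands Tnfsf13 (APRIL, 7 and 22 counts) and Tnfsf15 (TL1A, 4 and 5), the antisense Tnfsf13os (14 and 31), and the receptors Tnfrsf11a (RANK, 5 and 2), Tnfrsf17 (BCMA, 5 and 2), Tnfrsf19 (4 and 1) and Eda2r (1 and 0). Tnfsf13 and Tnfsf13os overlap on opposite strands. The read-through gene Tnfsfm13 shares 60.05% of the exon bases of Tnfsf13 on the same strand. How reads in shared exons were counted is not given, so the counts of Tnfsf13 may be too low.

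Placing the ligands beside their known receptors gave 22 pairs, of which 15 had both partners tested. Both partners were called in 4 pairs, which join Tnf and Lta, called lower, to Tnfrsf1a and Tnfrsf1b, called higher. Tnf went from 22.4 to 7.10 RPKM while Tnfrsf1b stood at 119.6 and 168 RPKM. Only the ligand was called in 6 pairs and only the receptor in 4. Several called genes had a partner at or near 0 in these cells: Cd40lg with Cd40, Tnfsf11 with Tnfrsf11a, and Tnfrsf25 with Tnfsf15. Fasl, at 94.4 and 86.0 RPKM, was well above its receptor Fas, at 10.5 and 7.25 RPKM, in both groups. Tnfsf10 was likewise above Tnfrsf10b, at 61.0 and 72.6 RPKM against 1.32 and 1.18 RPKM. The reverse order was seen in several pairs, among them Tnf and Lta with Tnfrsf1a and Tnfrsf1b, and Tnfsf9 with Tnfrsf9. It was also seen for GITR and CD27, whose ligand genes Tnfsf18 and Cd70 had no count. No test of ligand against receptor was made, and levels compare genes per length of exon only.

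**Figure D4:**
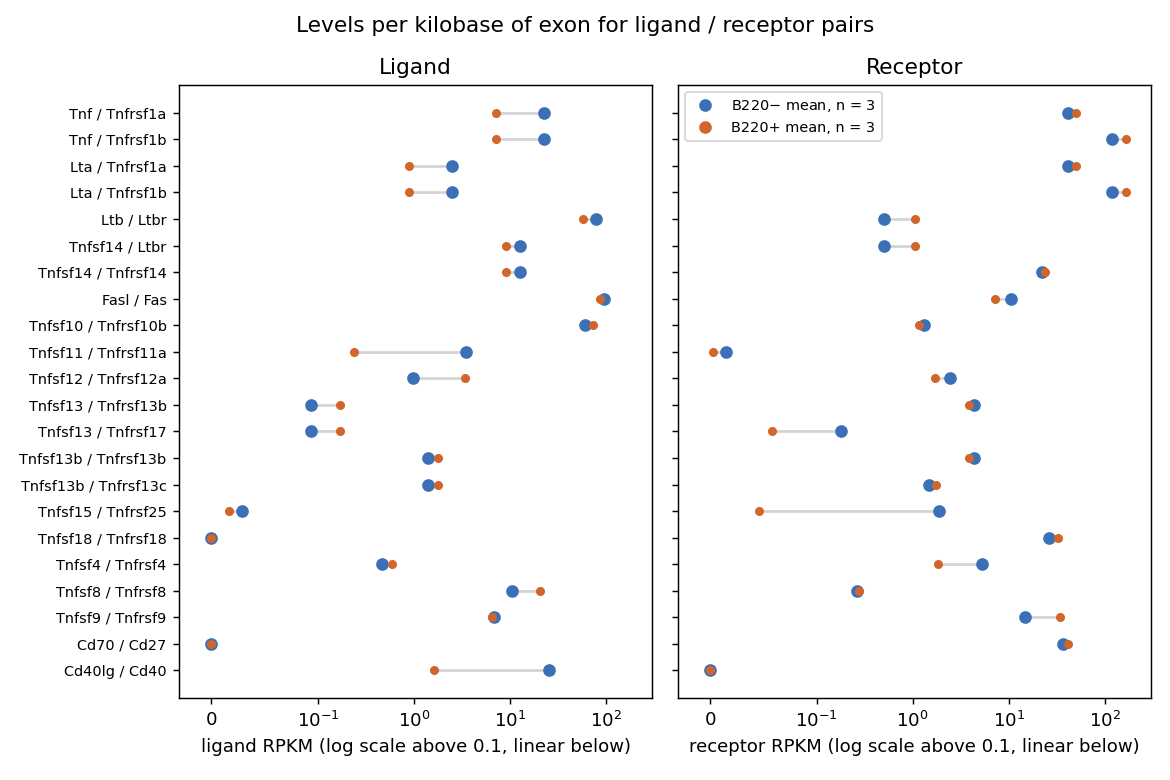
RPKM of ligand (left) and receptor (right) for 22 known pairs, as group means (n = 3) in B220- and B220+ cells (colours as in the key), on an axis that is logarithmic above 0.1 and linear below. The Tnf and Lta rows run to the left for the ligand and to the right for the receptor. The Ltb, Tnfsf14 and Tnfsf9 rows do so too, but both partners were called only in the Tnf and Lta rows.

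Members lie close together in the genome more than once, and 23 of the 45 fall into 9 groups of neighbours within 150 kb. Without the replicate block, the Ltb, Tnf and Lta group was the 1 group with all its members called in one direction. Cd27, Ltbr and Tnfrsf1a on chromosome 6 span 129863 bases, and Tnfrsf1a alone was called, while with the replicate block all 3 were called higher (edgeR adjusted p = 0.0340, 0.0231 and 0.00455). Tnfsf9, Cd70 and Tnfsf14 on chromosome 17 span 88853 bases, and only Tnfsf14 was called. Tnfrsf1b was called beside Tnfrsf8 (101702 bases), Tnfrsf4 beside Tnfrsf18, and Tnfsf12 beside Tnfsf13 and Tnfsf13os (13712 bases). In the other 3 groups no member was called without the block, and with it Tnfsf8 (beside Tnfsf15) was called higher and Tnfrsf22 (beside Tnfrsf26 and Tnfrsf23) lower.

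The genes that act behind these receptors, or shed their ligands, were described by a list of 42, all of them tested. Of these 2 were called higher and 4 lower, or 14.3% against 11.1% of all genes, with a median log2 fold change of 0.0081 beside −0.0074. With the replicate block 3 were called higher and 7 lower, against 17.5% of all genes called in either direction. Traf1, an adaptor induced by NF-κB that binds 4-1BB and TNFR2, fell from 248 ± 9.22 to 181 ± 11.1 CPM (edgeR adjusted p = 9.13e-04). Nfkbia, the inhibitor of NF-κB that is itself an NF-κB target, fell from 268 ± 10.4 to 194 ± 16.3 CPM (edgeR adjusted p = 0.00121). Cflar, which encodes the caspase-8 inhibitor cFLIP, fell from 151 ± 12.2 to 118 ± 3.33 CPM (edgeR adjusted p = 0.00639). Traf3ip2, the adaptor Act1 of interleukin-17 receptors and regulator of CD40 signalling, fell from 59.7 ± 2.57 to 46.4 ± 3.48 CPM (edgeR adjusted p = 0.00936), a call that was lost (0.0528) without B220+ replicate 3. The calls of the other 3 lower genes were kept without each library in turn.

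The calls of both signalling genes called higher were lost in several fits that left out 1 library. They were kept with DESeq2 (adjusted p = 0.00549 for Traf5 and 0.0276 for Relb). With the replicate block the edgeR adjusted p was 1.55e-04 for Traf5 and 0.00672 for Relb. Traf5, an adaptor of CD27, OX40 and other receptors, rose from 81.2 ± 10.1 to 106 ± 10.1 CPM (edgeR adjusted p = 0.0265), with an adjusted p of 0.0600 without B220- replicate 1, 0.119 without B220- replicate 3 and 0.124 without B220+ replicate 2. Relb, the NF-κB subunit of the noncanonical pathway that lymphotoxin β receptor and CD40 use, rose from 50.9 ± 4.98 to 63.1 ± 2.07 CPM (edgeR adjusted p = 0.0282). Leaving out any library but B220- replicate 2 ended its call, with adjusted p values of 0.0642 to 0.111. Tnfaip3, which encodes the brake A20, was the most abundant gene of the list at 2982 ± 251 and 2564 ± 173 CPM (edgeR adjusted p = 0.162, or 0.0240 with the replicate block). The shared transducers Traf2 (61.9 ± 3.23 and 62.6 ± 2.43 CPM), Fadd (12.2 ± 1.35 and 12.4 ± 1.91 CPM) and Casp8 (114 ± 3.99 and 109 ± 2.36 CPM) were not called, nor were the sheddases Adam10 and Adam17 (edgeR adjusted p = 0.870 and 0.650).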

How the data were processed

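Gene-level RNA-seq counts were analysed for 6 libraries. The authors deposited raw read counts, whole numbers for each gene. Per the submitters' processing notes, FastQC 0.11.7, Trimmomatic 0.38, HISAT2 2.1.0, SAMtools 1.9, featureCounts 1.6.3 and the mm10 build were used. No counting option, strand setting or annotation release is given in the sources used here. Per the labels' protocols the library kit was directional.

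Counts were tested in R 4.3.3 with edgeR 4.0.16 (TMM scaling, filterByExpr with minimum count 10 and minimum total 15, robust quasi-likelihood fit, F test, design of group alone, B220+ minus B220-), with Benjamini-Hochberg adjustment over 14722 genes and calls at adjusted p under 0.05. The script was tested on data simulated without pairing, in 3 runs with 200 changed genes each. It recovered 57.3% of 1.5-fold, 68.7% of 2-fold, 88% of 3-fold and 92.7% of 4-fold changes. Of all simulated calls at an adjusted p under 0.05, 9.45% were false. This share is over all calls together, and calls near the threshold may be less certain than it. Changes under 1.5-fold were not simulated, so the shares do not cover them. Small changes, called or not, are therefore uncertain. The SE is the log2 fold change divided by the square root of F. CPM use the scaled library sizes. RPKM divide CPM by exon length in GENCODE release M21, whose coordinates equal the deposited ones for 98.73% of genes. Exon overlaps and neighbours within 150 kb were also taken from these models. Promoters came from RefSeq (GRCm38.p6), matched by symbol.

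Alternatives were DESeq2 1.42.0, RLE scaling, no filter beyond a count above 0, the replicate block and leaving out each library. Replicates were compared gene by gene, and chi-square divided by its degrees of freedom was 6.86 to 14.9, so none repeated another. Deviations from group means (log2 CPM, prior count 2) correlated across genes at 0.295, 0.246 and 0.272 for replicates 1, 2 and 3, and at −0.203 to −0.0675 for different numbers. Deviations cancel within each group, so positive values for equal numbers force negative ones on average for different numbers. The negative sign is therefore no separate evidence of pairing. On the positive values, the numbers of the titles were used as a block, in an alternative fit only. Any pairing is read from the data and not stated by the labels. Calls are from the fit without the block unless the block is named, and several change with it. Members and gene lists were chosen with earlier results of these data known. Named were all called members, other members with a group mean of at least 5 CPM, their pair partners and called signalling genes. The uncalled signalling genes described, and the values of uncalled members below that level, were chosen after their values were seen.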

Additional observations from a re-analysis of the deposited data

How the results depend on the processing

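Direction held for every called member and every called signalling gene under DESeq2, RLE scaling, no filter on low counts, the replicate block and the 6 fits without 1 library. The replicate block raised the count of called genes from 1639 to 2569 and that of signalling genes from 6 to 10; called ligands went from 7 to 9 and called receptors from 7 to 10. Among members the block ended 1 call (Tnfrsf9) and added 6 (Tnfsf8, Tnfsf10, Tnfrsf18, Tnfrsf22, Cd27 and Ltbr), and among signalling genes it added 4 (Map3k14, Tnfaip3, Tnfaip8l2 and Nfkb2); it changed no other call in either list. Without 1 library, the counts ranged from 970 to 1789 for all genes (970 without B220+ replicate 2, 1029 without B220- replicate 3), from 4 to 7 for ligands (4 without B220- replicate 3), from 5 to 8 for receptors and from 4 to 7 for signalling genes. Other scalings moved the median log2 fold change of all genes by under 0.1. In the shallowest library, B220- replicate 3, 3 counts correspond to 0.262 CPM, so members below that level cannot be compared in single libraries.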
